A study of Mus musculus with 6 samples.

Results

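Glycolysis and hypoxia genes were followed through bone marrow-derived macrophages of Cd28 KO and WT mice. The 31 genes were taken by symbol through their Entrez identifiers, out of 14574 genes listed in any library, and all 31 were found. They comprised 17 genes of glycolysis and glucose uptake, 13 targets of hypoxia-inducible factor (HIF) that act outside glycolysis, and Hif1a itself. The macrophages were grown from femur marrow of Cd28 KO mice or of C57BL/6J mice (WT), aged 6 to 10 weeks, over 7 days in DMEM with 10% serum, 2-mercaptoethanol and human M-CSF, the growth factor of macrophages. M-CSF was at 25 ng/ml and was renewed at intervals of 2 days. No further treatment was given to either group, and no oxygen level other than that of the culture is named. Each group had 3 libraries, and the labels do not say whether each number was a separate animal, so p-values measure only the spread between these samples. The sources used here do not give the part of Cd28 that was deleted or the sex of the mice.

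Glycolysis turns glucose into pyruvate in the cytosol, and lactate dehydrogenase regenerates the cofactor that lets the pathway run on when pyruvate is not oxidised in mitochondria. HIF is a transcription factor whose alpha subunit is hydroxylated by oxygen-dependent prolyl hydroxylases and then degraded, so that it accumulates when oxygen is scarce. In macrophages it is also stabilised by inflammatory signals, and its targets include most glycolytic enzymes together with genes of vessel growth, mitophagy, lipid storage and collagen modification.

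Cd28 itself stood at 25.7, 24.2 and 26.9 FPKM (fragments counted per transcript kilobase and scaled to the mapped total of that library) in the Cd28 KO libraries and at 38.2, 30.1 and 51.1 FPKM in the WT libraries. It was therefore lower but still listed in each Cd28 KO library. The 8 macrophage markers examined summed to 14104 to 16869 FPKM per library. Markers of T cells (3.88 to 7.20 FPKM in sum over 6 genes, with Cd3d at 0 in every library), B cells (0.67 to 1.22 over 4), mast cells (0 to 0.63 over 4) and red cell precursors (0 to 0.91 over 6, with Hbb-bt at 0) were low or absent. For 7 neutrophil markers the sum was 3.70 to 8.31 FPKM in the Cd28 KO libraries and 2.15 to 6.18 in WT, for 5 dendritic cell markers 3.34 to 4.80 and 2.27 to 5.0, and for 5 fibroblast markers 0.17 to 0.40 and 0.08 to 0.17. For 5 osteoclast markers the sum was 18.4 to 31.7 FPKM in the Cd28 KO libraries and 27.9 to 43.0 in WT, with Calcr at 0. The sum of 6 proliferation genes was 122 to 136 FPKM in the Cd28 KO libraries and 111 to 127 in WT. The Y-linked genes Ddx3y, Eif2s3y, Kdm5d and Uty, which summed to 54.5 FPKM in Cd28 KO replicate 3 and 52.1 in WT replicate 3, were listed in the replicate 3 libraries and in no other.

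No member passed the test between genotypes. Of the 31, 29 averaged 1 FPKM or more across libraries and were tested with limma, and 0 passed a Benjamini-Hochberg adjusted p of 0.05, against 2 of all 10172 tested genes (0.0197%). In the fit with the replicate block, limma called 0 of the 29 members and 18 of all tested genes (0.177%). Cd28 itself was not called in either fit (limma adjusted p = 0.9995, and 0.183 with the replicate block). At an unadjusted p below 0.05, limma listed 0 members in the unblocked fit and 1, Bnip3, in the blocked fit, where 2.49% and 7.89% of all tested genes were listed. In these bulk samples, fewer cells that use a gene and less of its RNA per cell cannot be told apart. Of the 31 members, 0 lie on chromosome 1, which holds Cd28. Adm, a vasodilator peptide, was listed at 0.08 FPKM in replicate 3 of each genotype and in no other library. Egln3, an inducible prolyl hydroxylase, lay just under the level filter, with a mean of 0.668 FPKM. Ankrd37 lay above the filter, with a mean of 1.84 FPKM and a lowest library of 1.47.

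**Figure D1:**
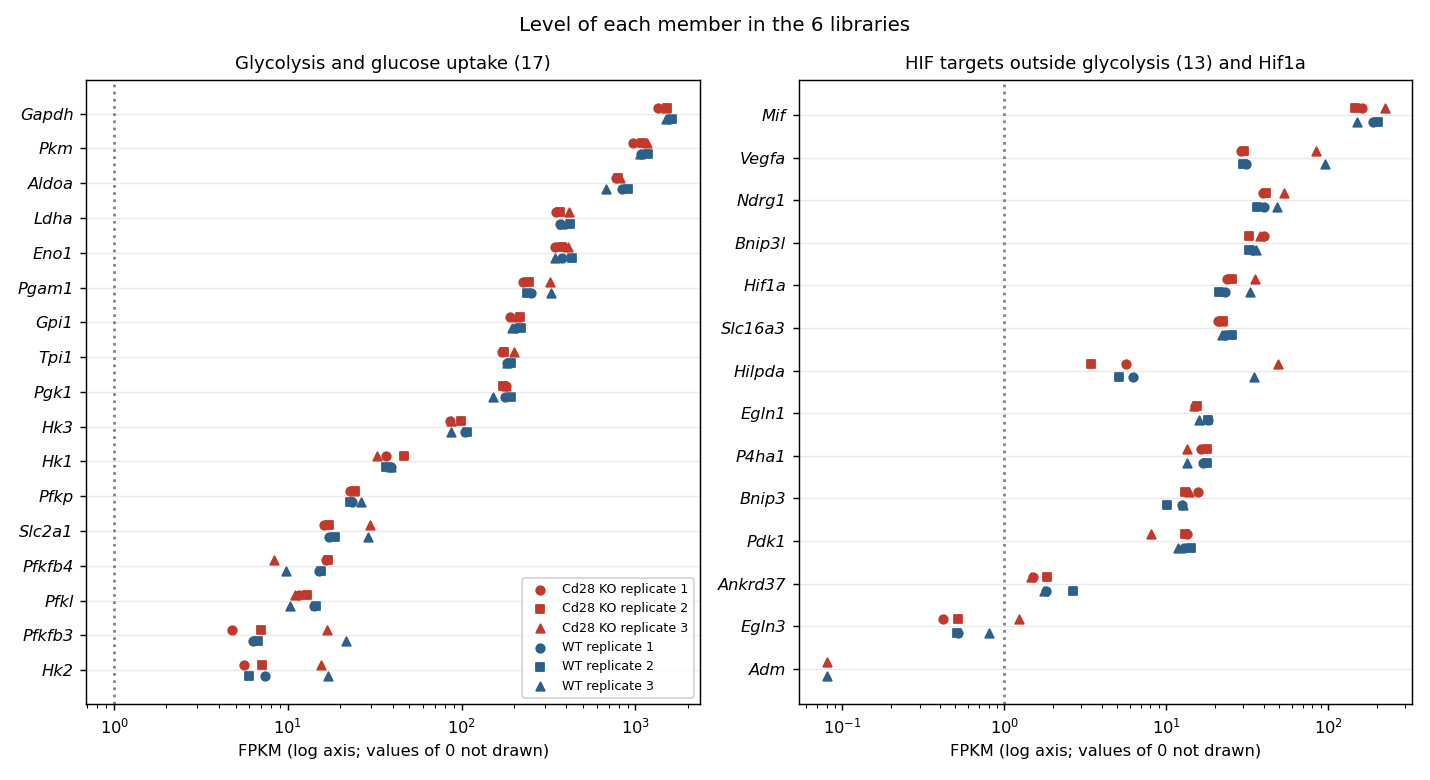
FPKM of the 31 members in each of the 6 libraries on a logarithmic axis, with Cd28 KO in red, WT in blue and a marker shape for each replicate number. The dotted line marks 1 FPKM. Genotypes lie side by side for most genes, and the replicate 3 triangles stand to the right for Hilpda, Vegfa, Pfkfb3, Hk2 and Slc2a1.

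The enzymes of the lower pathway were among the more abundant members. Gapdh, which oxidises glyceraldehyde 3-phosphate, stood at 1353, 1528 and 1502 FPKM in Cd28 KO and at 1557, 1626 and 1489 in WT. The 2 groups overlapped, and the means were 1461 ± 94.7 against 1557 ± 68.5 FPKM (SD, n = 3 each). Pkm, the pyruvate kinase gene, stood at 969, 1089 and 1166 FPKM in Cd28 KO and at 1071, 1178 and 1065 in WT. Its log2 difference, on the log2(FPKM + 1) scale used for all tests, was -0.04 with a 95% interval from -0.29 to 0.21. Splice forms of Pkm cannot be separated in gene-level values.

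Aldoa, which splits fructose 1,6-bisphosphate, stood at 777, 789 and 811 FPKM in Cd28 KO and at 835, 906 and 677 in WT. Ldha, which converts pyruvate to lactate, stood at 351, 366 and 412 FPKM in Cd28 KO and at 367, 418 and 378 in WT. Eno1, the main enolase, stood at 344, 377 and 409 FPKM in Cd28 KO and at 377, 430 and 343 in WT. In each of these 3 genes the Cd28 KO value was below the WT value of the same number in replicates 1 and 2 and above it in replicate 3.

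Tpi1, Gpi1 and Pgk1, which act at the triose, hexose and phosphoglycerate steps, each lay between 152 and 220 FPKM in all libraries. Their log2 differences were -0.04, -0.02 and 0.04. Pgam1, the phosphoglycerate mutase, stood at 226, 243 and 323 FPKM in Cd28 KO and at 251, 238 and 326 in WT, highest in replicate 3 of both. Gapdh, Pgk1, Pgam1, Aldoa, Eno1, Ldha and Mif belong to sequences with many processed copies in the mouse genome, and RSEM shares reads among similar sequences, so their values are uncertain to that extent. Eno1b, a retrocopy of Eno1, was listed in 1 library, at 0.22 FPKM.

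The first committed steps were carried by several isozymes. Hk3, a hexokinase of myeloid cells, was the most abundant of the hexokinases, at 85.1, 99.5 and 87.0 FPKM in Cd28 KO and 104, 107 and 86.5 in WT. It made up 60.7% to 71.6% of the summed FPKM of Hk1, Hk2 and Hk3. Hk1, the broadly expressed form, lay between 32.7 and 46.9 FPKM. Hk2, the inducible form that binds mitochondria, stood at 5.61, 7.06 and 15.6 FPKM in Cd28 KO and at 7.36, 5.94 and 16.9 in WT. Its share of the hexokinases was 4.0% to 4.9% in replicates 1 and 2, and 11.5% (Cd28 KO) and 11.9% (WT) in replicate 3. The family sum was 128 to 153 FPKM, with the replicate 3 libraries at 135 and 143 within that range.

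Phosphofructokinase RNA came mainly from Pfkp, the platelet form, at 22.7 to 26.2 FPKM, and Pfkl, the liver form, at 10.2 to 14.5. Exons of Pfkp and of Pitrm1 on the opposite strand share 17.4% of Pfkp's exon bases, and no source used here says that strand was used in counting. Pfkfb3 and Pfkfb4 make fructose 2,6-bisphosphate, the activator of phosphofructokinase. Pfkfb3 stood at 4.79, 7.02 and 16.7 FPKM in Cd28 KO and at 6.27, 6.70 and 21.7 in WT. Pfkfb4 stood at 16.6, 16.9 and 8.35 FPKM in Cd28 KO and at 15.1, 15.4 and 9.80 in WT. Their order was thus opposite in the libraries numbered 3. Pfkfb3 held 18.4% to 25.9% of the summed FPKM of the 4 Pfkfb genes in replicates 1 and 2, and 61.5% and 63.1% in replicate 3 of Cd28 KO and WT.

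**Figure D2:**
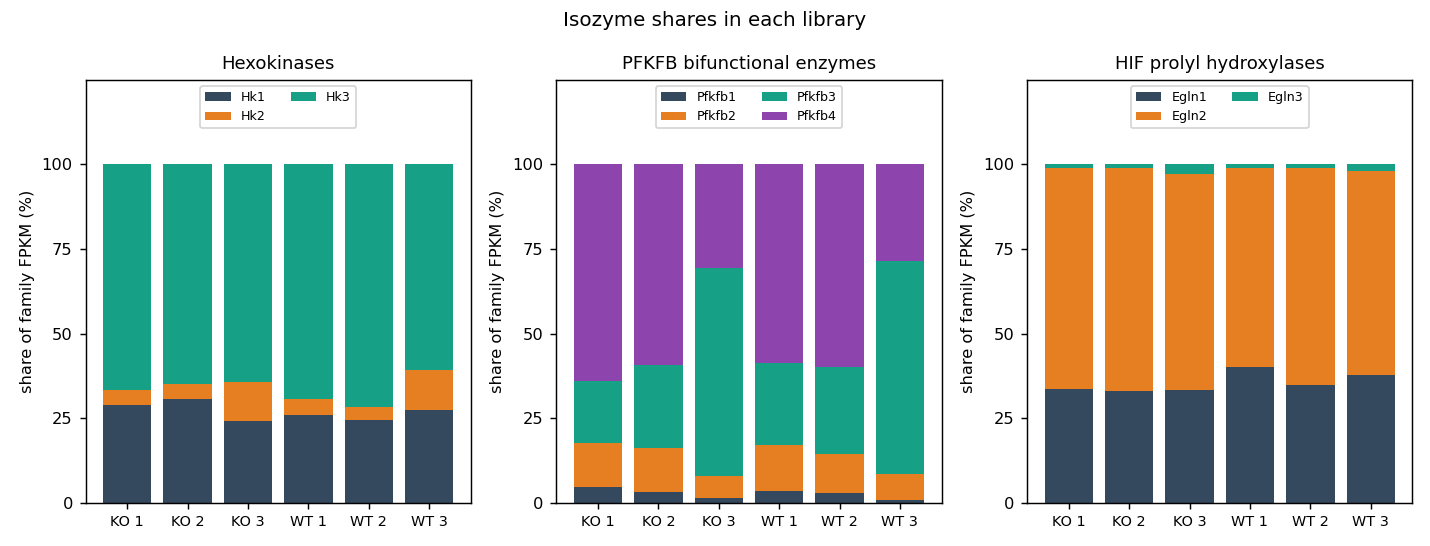
Share of each isozyme in the summed FPKM of its family, as stacked bars for the 6 libraries, for hexokinases, the bifunctional PFKFB enzymes and the HIF prolyl hydroxylases. Pfkfb3 takes 61.5% and 63.1% of its family in the replicate 3 libraries and at most 25.9% in the others.

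Slc2a1, the glucose transporter that HIF induces, stood at 16.1, 17.1 and 29.6 FPKM in Cd28 KO and at 17.2, 18.8 and 28.9 in WT. Replicate 3 was the highest library in each genotype, and the log2 difference between genotypes was -0.06 with a 95% interval from -0.71 to 0.60. As a whole, the 17 glycolysis genes came to 4758, 5186 and 5435 FPKM in the Cd28 KO libraries and 5250, 5630 and 5045 in WT, which was 0.853% to 1.05% of a library's FPKM.

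Hif1a stood at 23.7, 25.4 and 35.3 FPKM in Cd28 KO and at 23.1, 21.1 and 33.2 in WT. It was higher in Cd28 KO in all 3 pairs of equal number, while the groups overlapped, and its log2 difference was 0.13 ± 0.21 (SE; limma adjusted p = 0.9995, and 0.825 with the replicate block). On the TPM scale, where each library is rescaled to the same sum, Hif1a was higher in Cd28 KO in 1 of the 3 pairs, and without Cd28 KO replicate 3 the log2 difference was -0.04. HIF is regulated mainly at the protein level, which these data do not measure. Epas1, the other alpha subunit, held 2.0% to 5.0% of the summed FPKM of Hif1a and Epas1.

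Among the HIF targets outside glycolysis, Bnip3 and Egln1 were the members whose groups did not overlap. This was 1 of 29 tested members higher, where 3.84% of all tested genes were higher without overlap, and 1 lower, where 2.87% were. Bnip3 (chromosome 7, 138890836 to 138909506, GRCm38), a mitochondrial outer membrane protein of mitophagy, stood at 15.7, 13.1 and 13.8 FPKM in Cd28 KO and at 12.5, 10.1 and 12.6 in WT. Its log2 difference was 0.26 ± 0.14 (SE). The limma p was 0.109 unadjusted and 0.9995 adjusted without a block, and 0.041 and 0.605 with the replicate block. An antisense transcript, Gm45507, overlaps 27.2% of Bnip3's exon bases, and their reads cannot be told apart without strand. Bnip3l, its close relative in mitophagy, had overlapping groups, at 40.0, 32.4 and 38.1 FPKM against 33.7, 32.5 and 35.9.

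Egln1 (chromosome 8, 124908587 to 124949254, GRCm38), the main prolyl hydroxylase that marks HIF for degradation, stood at 15.1, 15.5 and 14.9 FPKM in Cd28 KO and at 18.1, 18.1 and 16.03 in WT. The Cd28 KO libraries differed little from each other, and the mean was 87.1% of WT. Its log2 difference was -0.19 ± 0.11 (SE; limma adjusted p = 0.9995, and 0.730 with the replicate block). Egln2, another prolyl hydroxylase, held 58.7% to 65.9% of the summed FPKM of the 3 hydroxylases, Egln1 33.0% to 40.1% and Egln3 at most 2.8%. On the TPM scale the groups of Egln1 again did not overlap, while those of Bnip3 did.

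Ankrd37, a small ankyrin-repeat protein, was lower in Cd28 KO in all 3 pairs of equal number, at 1.51, 1.83 and 1.47 FPKM against 1.82, 2.64 and 1.75. The groups overlapped, and exons of Lrp2bp on the opposite strand share 20.1% of its exon bases. Pdk1, the kinase that holds pyruvate dehydrogenase inactive, stood at 13.5, 13.04 and 8.09 FPKM in Cd28 KO and at 12.9, 14.2 and 11.8 in WT. Slc16a3, which exports lactate, lay between 20.9 and 25.4 FPKM in all libraries.

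P4ha1, a collagen prolyl hydroxylase, differed by a log2 of -0.01, with a 95% interval from -0.39 to 0.37. Ndrg1, a stress-responsive gene, lay between 36.4 and 53.6 FPKM and was highest in replicate 3 of both genotypes. Mif, a macrophage cytokine, stood at 161, 147 and 223 FPKM in Cd28 KO and at 189, 203 and 151 in WT. Replicate 3 was thus the highest Cd28 KO library and the lowest WT library for Mif.

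Differences between genotypes were small in both groups of members. The median log2 difference was -0.04 over the 17 glycolysis genes and -0.05 over the 11 tested HIF targets, beside -0.00 over all tested genes. With the members below the level filter included, the median over the 13 HIF targets was -0.04. The medians were -0.13 and -0.11 between the replicate 1 libraries, -0.11 and -0.11 between the replicate 2 libraries, and 0.04 and 0.01 between the replicate 3 libraries, for glycolysis genes and HIF targets in that order. Over all tested genes they were 0.01, 0.04 and -0.05. The HIF targets minus the glycolysis genes gave 0.02, -0.01 and -0.03 in replicates 1, 2 and 3, so the 2 groups of genes showed no separation of a constant sign.

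Of the 29 tested members 22 had a negative difference, against 5174 of all 10172 tested genes. The split was 25 of 29 on the TPM scale and 23 of 29 with quantile normalization, and without Cd28 KO replicate 1 it was 11 of 29. No share over all tested genes was counted in these settings, so these splits are not a result about the members. TPM rescaling moves all genes of a library together, and the log2 difference of Pkm went from -0.04 to -0.10 with it. The differences of single members ranged from -0.23 for Ankrd37 to 0.26 for Bnip3. In 19 of 29 members the 95% interval without a block lay within a 1.5-fold change in either direction (65.5%, against 63.6% of all tested genes). With the replicate block it did so in all 29 (against 92.1%). The intervals of Hilpda, Vegfa, Pfkfb3 and Hk2 reached beyond 2-fold without a block, so that a 2-fold change of these 4 genes lay within the error of that fit.

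**Figure D3:**
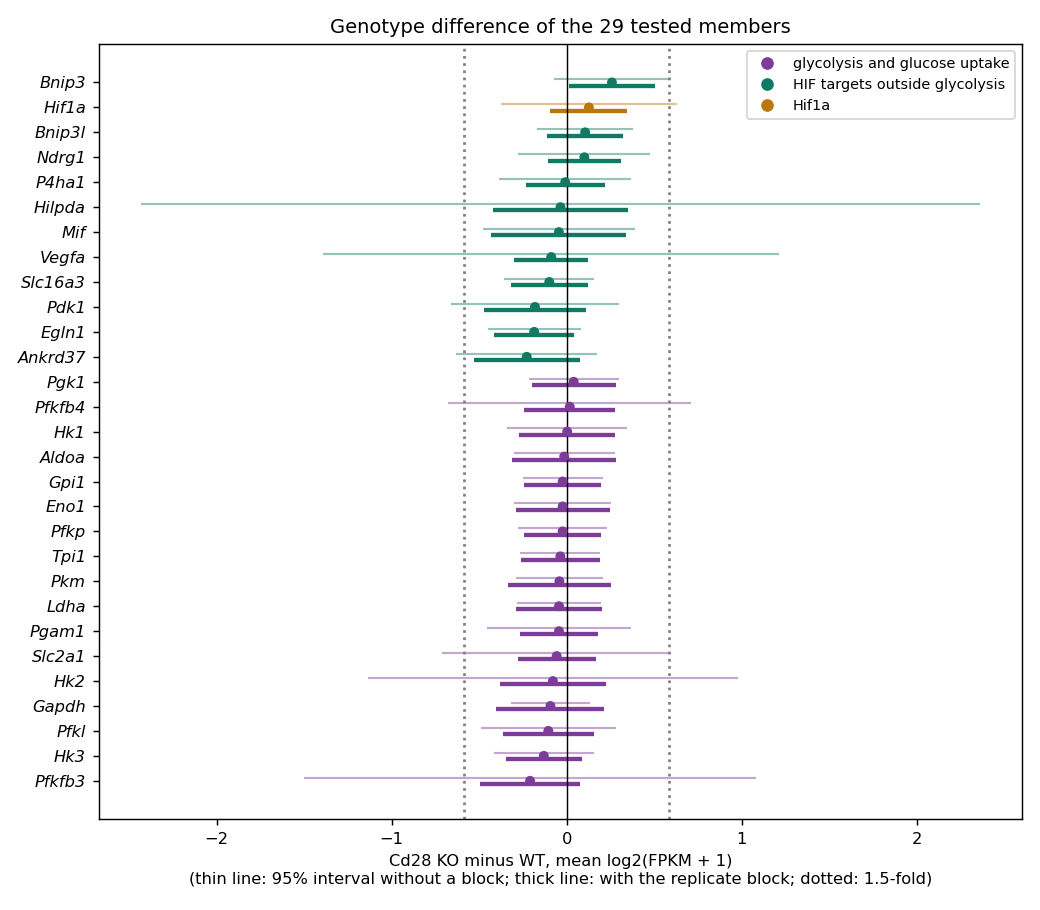
Difference in mean log2(FPKM + 1), Cd28 KO minus WT, for the 29 tested members, with 95% limma intervals without a block (thin) and with the replicate block (thick), and dotted lines at 1.5-fold. All points lie between -0.23 and 0.26, and the thin intervals are wide for Hilpda, Vegfa, Pfkfb3 and Hk2.

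In replicates 1 and 2 alone, 14 of the 29 tested members had groups that did not overlap. The 11 lower members were Hk3, Pfkl, Aldoa, Tpi1, Gapdh, Eno1, Ldha, Slc2a1, Egln1, Mif and Slc16a3, and 18.3% of all tested genes were lower in this way. The 3 higher members were Pfkfb4, Bnip3 and Hif1a, where 25.8% of all tested genes were higher. On the TPM scale, chosen after seeing the data, 6 members were lower and 2 higher, against 16.4% and 23.4% of all tested genes. Limma called 0 of the 29 members in these 4 libraries. The glycolysis median was -0.12 there, and the HIF target median -0.04.

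In replicate 3 of both genotypes a few members stood far from their level in the other libraries. No label says in what way replicate 3 differed, so these values are a description, with no test. Hilpda (chromosome 6, 29272488 to 29275449, GRCm38), a lipid droplet protein that inhibits triglyceride breakdown, stood at 5.63, 3.41 and 49.3 FPKM in Cd28 KO and at 6.22, 5.14 and 34.7 in WT. Replicate 3 was 10.9 times the mean of replicates 1 and 2 in Cd28 KO and 6.12 times in WT. Vegfa, the endothelial growth factor, stood at 28.8, 30.3 and 83.9 FPKM in Cd28 KO and at 31.1, 29.7 and 95.5 in WT. The corresponding ratios were 2.84 and 3.14. For Pfkfb3 they were 2.82 and 3.34, for Hk2 2.46 and 2.55, for Slc2a1 1.78 and 1.61, and for Hif1a 1.44 and 1.499.

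The other HIF targets among the members lay on both sides of 1. Egln3, just under the level filter, had ratios of 2.64 in Cd28 KO and 1.55 in WT, and Ndrg1 1.32 and 1.27. Bnip3 had ratios of 0.957 in Cd28 KO and 1.12 in WT, Egln1 0.977 and 0.885, P4ha1 0.782 and 0.778, and Ankrd37 0.880 and 0.785. Pfkfb4 was lower in replicate 3, at ratios of 0.498 and 0.643, and Pdk1 at 0.610 and 0.875. Over the 17 glycolysis genes the median shift of replicate 3 was 0.06 in Cd28 KO and -0.08 in WT on the log2(FPKM + 1) scale, and over the 11 tested HIF targets 0.03 and -0.13. It was -0.13 and -0.09 over all tested genes.

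By this measure, 4 of the 29 tested members were at least 2-fold higher in replicate 3 of both genotypes (Hilpda, Vegfa, Pfkfb3 and Hk2), where 2.32% of all tested genes were, and 0 were 2-fold lower, where 1.24% were. Across the 29 members the shifts in Cd28 KO and in WT had a Pearson r of 0.915 and a Spearman rho of 0.687, as a description across genes that share libraries. The same figures over all 10172 tested genes were 0.782 and 0.611. The Y-linked genes were listed only in replicate 3 of both genotypes, so sex, as read from Y-linked RNA, and replicate number cannot be told apart. In replicate 3 of Cd28 KO and WT the sum of dendritic cell markers was 4.80 and 5.0 FPKM (2.27 to 3.57 in the other libraries), with all 5 listed in at least 1 library. The sum of neutrophil markers was 8.31 and 6.18 FPKM (2.15 to 5.18), of which S100a8 gave 4.44 and 3.65 and S100a9 3.75 and 2.33. Ly6g, Elane and Camp were at 0 in both of these libraries, with Mpo at 0.08 and 0.12 and Ltf at 0.04 and 0.08. The sum of T cell markers was 3.88 and 4.40 FPKM (6.52 to 7.20), of which Cd4 gave 2.95 and 3.31. The part of these cell types in the result was not tested.

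**Figure D4:**
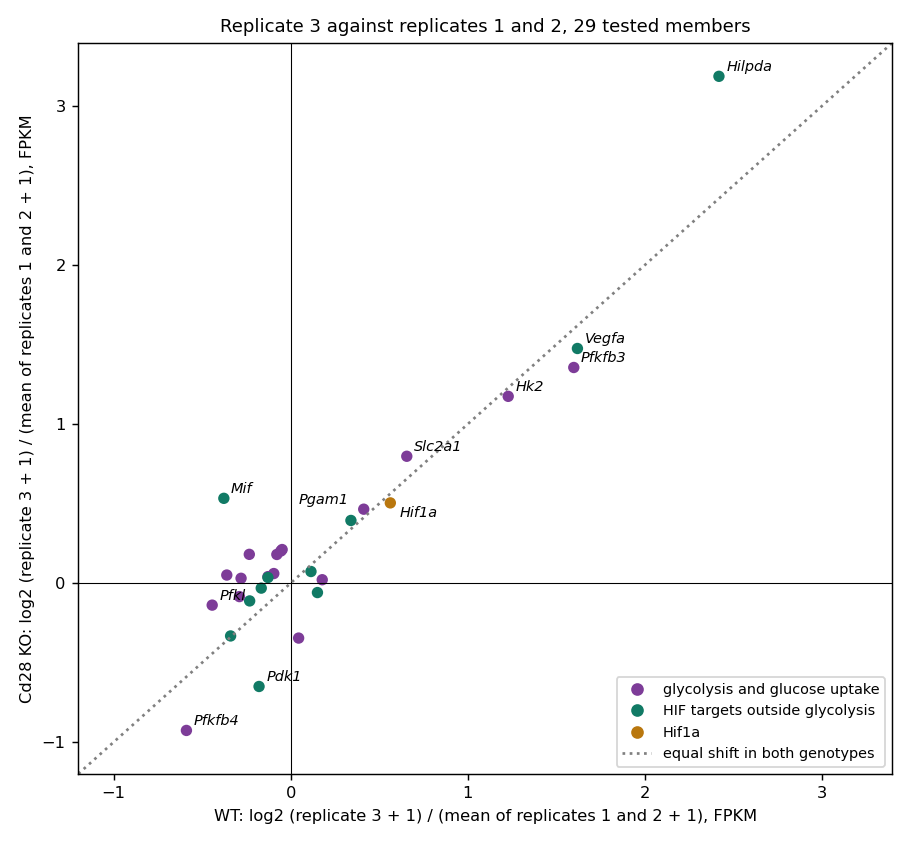
Log2 ratio of replicate 3 to the mean of replicates 1 and 2 (FPKM + 1), in WT on the horizontal and in Cd28 KO on the vertical axis, for the 29 tested members. Hilpda, Vegfa, Pfkfb3 and Hk2 lie above 1 on both axes along the line of equal shift, while most glycolytic enzymes lie near 0.

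Promoter sequence is shown for a pair of genes that stood high in replicate 3, Hilpda and Hk2, and for Bnip3, which did not. The windows are the 250 bases before the most upstream RefSeq start (GRCm38.p6), read 5′ to 3′ on the gene's strand. Capitals mark ACGTG and GCGTG, the core letters of HIF-response elements, on either strand, so that CACGT and CACGC are their reverse complements and the run CACGTG holds 1 ACGTG on each strand.
Hilpda, chr6:29272238-29272487, plus strand: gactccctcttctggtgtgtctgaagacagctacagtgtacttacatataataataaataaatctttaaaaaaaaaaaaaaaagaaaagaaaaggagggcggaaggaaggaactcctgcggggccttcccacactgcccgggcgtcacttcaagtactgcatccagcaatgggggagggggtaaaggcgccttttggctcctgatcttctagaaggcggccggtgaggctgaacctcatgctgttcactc
Hk2, chr6:82774455-82774704, minus strand: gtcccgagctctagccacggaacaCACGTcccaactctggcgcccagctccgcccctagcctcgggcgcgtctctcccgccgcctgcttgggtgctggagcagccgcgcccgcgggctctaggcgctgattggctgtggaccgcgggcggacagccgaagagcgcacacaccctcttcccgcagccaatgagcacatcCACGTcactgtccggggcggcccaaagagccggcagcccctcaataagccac
Bnip3, chr7:138909507-138909756, minus strand: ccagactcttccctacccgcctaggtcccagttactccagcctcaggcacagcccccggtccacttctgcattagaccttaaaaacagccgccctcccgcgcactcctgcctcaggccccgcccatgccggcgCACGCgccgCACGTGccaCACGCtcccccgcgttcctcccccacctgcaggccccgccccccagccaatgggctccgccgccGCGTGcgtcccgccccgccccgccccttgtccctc
The Hilpda window held neither motif, while the window of a second Hilpda start held both. The Hk2 window held ACGTG 2 times and the Bnip3 window 2 times, with 3 matches to GCGTG.

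Of the 31 members 29 had a promoter window in RefSeq, and 18 of them (62.1%) held ACGTG in at least 1 window. This was 9 of 17 glycolysis genes and 8 of 11 HIF targets with a window. Among the 8306 tested genes with a window the share was 26.4%, and among all 27025 genes with a window 18.5%. GCGTG was in 18 of the 29 members (62.1%), against 51.2% of tested genes and 30.9% of all genes with a window. A match describes the letters of a window and is not evidence of binding. ACGTG was held by the printed windows of Bnip3 and Hk2, and a relation of the motifs to the replicate 3 ratios was not tested.

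The rest of the pathway also gave no call. Of 94 further genes in 5 lists, 71 passed the level filter, and limma called 0 of them in either fit, with or without the replicate block. Their median log2 difference was 0.00. At an unadjusted p below 0.05, limma listed 2 without a block (Eno2 and P4ha2) and 5 with it (these and Cxcr4, Pdgfb and Bhlhe40), out of 71, where 2.49% and 7.89% of all tested genes were listed. These pooled counts are near that background. By list, the 5 with the block were 4 of the 17 tested further HIF targets and 1 of the 17 tested further glycolysis genes. The other lists held 0. Eno2, an enolase best known from neurons, was lower in every Cd28 KO library, at 8.01, 6.84 and 9.42 FPKM against 11.2, 12.3 and 10.3 in WT (log2 difference -0.44 ± 0.15 SE, limma adjusted p = 0.9995, and 0.455 with the replicate block). It held 1.8% to 2.9% of enolase FPKM. The other named genes of this list, Tigar, which lowers fructose 2,6-bisphosphate, and the muscle enolase Eno3, had log2 differences of -0.21 and 0.20 with overlapping groups.

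Among 17 tested further HIF targets, P4ha2, a second collagen prolyl hydroxylase, was higher in every Cd28 KO library, at 1.49, 1.89 and 1.66 FPKM against 1.13, 0.56 and 1.27 (log2 difference 0.45 ± 0.19 SE, limma adjusted p = 0.9995, and 0.552 with the replicate block). Pdgfb, a growth factor chain, and Cxcr4, a chemokine receptor, had log2 differences of -0.27 and 0.31, with limma adjusted p values of 0.576 and 0.510 with the block. Cxcr4 stood at 196, 191 and 253 FPKM in Cd28 KO and at 153, 137 and 236 in WT. Bhlhe40, Mxi1 and Ddit4 of this list were at least 2-fold higher in replicate 3 of both genotypes, and are given here for that pattern. Bhlhe40, a transcriptional repressor, stood at 175 and 167 FPKM in replicate 3 of Cd28 KO and WT and at 12.1 to 21.1 elsewhere. Mxi1, an antagonist of Myc, stood at 23.7 and 27.8 FPKM in replicate 3 and at 7.68 to 8.50 elsewhere. Ddit4, an inhibitor of mTORC1 signalling, stood at 3.18 and 3.65 FPKM in replicate 3 of Cd28 KO and WT and at 0.32 to 0.84 elsewhere, and passed the level filter through replicate 3 alone.

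The HIF machinery, the pentose phosphate pathway and the pyruvate dehydrogenase list gave 0 calls among 15, 9 and 13 tested genes. Rack1, Eloc and Crebbp, which act in HIF turnover or as coactivator, had log2 differences of 0.19, 0.12 and -0.15. In the pentose phosphate pathway, H6pd, the form of the endoplasmic reticulum, was lower in every Cd28 KO library, at 12.97, 13.64 and 11.24 FPKM against 13.65, 14.58 and 14.68, with a gap of 1 unit in the second decimal between the groups. Tkt and Pgls, also of this pathway, had log2 differences of -0.05 and -0.09. Around pyruvate dehydrogenase, Pdk3, Dld and Pcx had log2 differences of -0.18, 0.16 and 0.17, all with overlapping groups.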

How the data were processed

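RNA sequencing gave 1 FPKM value per gene and library for 3 Cd28 KO and 3 WT libraries, as deposited. Per the submitters' processing notes the authors used Bowtie and RSEM with build GRCm38, with no version stated there. A file lists only genes above 0, and a missing gene was counted as 0. Libraries listed 12768 to 13327 genes, and read depth is unknown. Entrez identifiers were matched to NCBI RefSeq (GRCm38), which named 14551 of 14574. Limma 3.58.1 in R 4.3.3 tested log2(FPKM + 1) for the 10172 genes that averaged 1 FPKM or more, without a block, with Benjamini-Hochberg adjustment at 0.05, two-sided, and it was checked on simulated data. Deviations from the group means correlated at 0.752, 0.505 and 0.783 between libraries of replicate number 1, 2 and 3, so the fit with the replicate block is given beside it, although no label states a pairing. Within a group the deviations of a gene sum to 0, so these correlations are not independent. A shift shared by the replicate 3 libraries raises the other correlations too. Overlap of exons used GENCODE M21. Members and lists were chosen with earlier results of these data known. Besides all members, up to 3 genes of smallest p per further list are named. Figures used Matplotlib 3.10.9 in Python 3.11.15.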

Additional observations from a re-analysis of the deposited data

How the results depend on the processing

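The count of members called by limma was 0 under every alternative run, with a lowest adjusted p of 0.161 for any member, and all 405 comparisons of a member's difference under an alternative stayed on the same side of the threshold, 50 of them with the other sign. The paired fit (replicate block) raised the calls over all genes from 2 to 18 and changed no member's call. All genes called numbered 5 with no filter, 71 in replicates 1 and 2 only, and 2 to 2 without each replicate in turn. Members without overlap numbered 2, then 1 on the TPM scale, 14 in replicates 1 and 2 only and 8 there on the TPM scale, and 2 to 8 without each replicate, since fewer samples overlap less. Leaving out 1 library gave 4 for Cd28 KO replicate 2, 6 for Cd28 KO replicate 3 and 8 for WT replicate 3. The share over all tested genes was not counted with 1 library left out, so these counts are not a result about the members. Without each replicate, the glycolysis median ranged from -0.10 to 0.03 and the HIF target median from -0.122 to 0.0766. The HIF target median minus the glycolysis median ranged from -0.0612 to 0.116 without each replicate, and was -0.0296 with a pseudocount of 0.1 and 0.0824 in replicates 1 and 2 only. The cause was not tested. FPKM without read counts gives no depth, so no counting interval is given for low genes such as Adm and Egln3.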
